A study of Mus musculus with 6 samples.

Results

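The insulin, mTOR and AMPK signalling genes are a list of 36 genes that runs from the insulin receptor to AKT, through the tuberous sclerosis complex (TSC) and the mTOR complexes to the control of protein synthesis, and along the AMPK branch from the LKB1 complex to the AMPK subunits. Its members were matched by gene symbol, and all 36 are among the 27179 genes in the count files. The list was divided into 6 arms that are described apart, with 9 genes from insulin receptor to AKT, 3 for TSC and Rheb, 7 for the mTOR complexes, 7 for mTORC1 effectors and translation, 3 for the LKB1 complex and 7 for AMPK subunits.

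Quadriceps muscles of 3 control mice (libraries B, C and D) and 3 miDrp1KO mice (libraries A, E and F) were compared by RNA-seq 3 weeks after deletion of *Dnm1l*, the gene of the mitochondrial fission protein Drp1. The miDrp1KO mice carried floxed *Dnm1l* and the HSA-MerCreMer transgene, a tamoxifen-inducible Cre recombinase driven by the human skeletal actin (*ACTA1*) promoter. Controls were labelled Control f/f, and the methods describe control mice as flox/+ or flox/flox and name no Cre for them. Both genotypes were given tamoxifen at 3 months of age and ate normal chow. The methods state that the mice were studied after a fast, without naming the RNA-seq mice. The floxed line had been backcrossed to C57BL/6J. Cre acts in the muscle fibers, so the other cells of the tissue keep an intact *Dnm1l*, and the methods describe the mice studied as male, while the labels give no sex.

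Insulin binding to its receptor recruits the IRS adaptors and PI3-kinase, whose lipid product brings PDK1 and AKT to the membrane. AKT inhibits the TSC1-TSC2 complex, which frees the GTPase Rheb to activate mTORC1, and mTORC1 raises protein synthesis through S6 kinases and 4E-BP proteins. AMPK, switched on by LKB1 when ATP runs low, opposes mTORC1 and favors fuel oxidation, and in skeletal muscle this balance is known for its part in fiber size and glucose uptake. These pathways act mainly through phosphorylation, which counts of transcripts do not measure.

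*Dnm1l* was measured at 156, 114 and 140 CPM (counts divided by the library size and scaled to a common total) in control libraries B, C and D and at 70.6, 81.3 and 66.2 CPM in miDrp1KO libraries A, E and F. All 3 miDrp1KO libraries were below all 3 controls, as the genotype labels say. The log2 fold change of miDrp1KO over control was -0.91 ± 0.18 (SE, n = 3 per group), with an adjusted p of 0.362 by edgeR and of 0.00382 by DESeq2, and the adjusted p ran from 0.00382 to 0.877 over the 13 alternative settings. The targeted gene itself therefore did not pass the edgeR threshold used for every gene here.

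Library totals ran from 13989588 to 62042255 counts, and ribosomal RNA took 1.48 to 24.4% of them. Summed CPM of 8 skeletal muscle markers was 128500 to 140500 in control libraries and 102900, 59440 and 71610 in miDrp1KO libraries A, E and F. The fast myosin gene *Myh4* weighed most in this sum, with means of 57020 CPM in controls and 23260 CPM in miDrp1KO. In 4 of the 8 (*Acta1*, *Myh4*, *Tnnt3* and *Pygm*) all miDrp1KO libraries were below all controls (10.3% of all genes). *Ckm*, *Myh1*, *Des* (log2 fold change -0.18) and *Mb* (0.67, higher in miDrp1KO) overlapped, so the sum does not stand for every muscle transcript. Slow fiber markers (8 genes) summed to 480, 72.9 and 107 CPM in control libraries B, C and D and to 99.5, 794 and 713 CPM in miDrp1KO libraries A, E and F, so that they were high in B, E and F. The 6 adipocyte markers summed to 186, 395 and 285 CPM in controls and 151, 70.5 and 181 CPM in miDrp1KO. Every miDrp1KO sum was below every control sum, though library F at 181 CPM was close to control B. Their log2 fold changes ran from -1.47 to -0.89, and 3 of them were lower at an unadjusted p under 0.05 (6.22% of all genes). The sums ran from 122 to 212 CPM for 6 macrophage markers, 141 to 254 CPM for 5 endothelial, 1101 to 1940 CPM for 5 fibroblast, 35.7 to 70.8 CPM for 5 Schwann cell and 32.7 to 130 CPM for 4 blood markers, and the groups overlapped in each sum. Among the macrophage and blood markers, *C1qa* (log2 fold change 0.64), *Cd68* (0.59) and *Ptprc* (0.42) were higher in all miDrp1KO libraries than in all controls, *C1qa* and *Ptprc* at an unadjusted p under 0.05. The other 4 macrophage markers had log2 fold changes of -0.054 to 0.16 and the other 3 blood markers of -0.083 to 0.14, and overlapped between the groups. These marker sums and the ribosomal RNA share thus varied between libraries, and their part in the values below was not tested, except that 1 fit adjusted for the ribosomal RNA share. In bulk tissue, fewer cells of a type and less RNA per cell cannot be told apart.

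All 36 members passed the filter on low counts, and 32 of the 36 had a negative log2 fold change in miDrp1KO, against 48.0% of the 16483 genes tested. Of these 32, *Pik3cb*, *Rheb*, *Rictor* and *Prkag1* lay close to zero and took positive values under upper quartile normalization, a scaling that moved the median of all genes from 0.02 to 0.11. The median over the members was -0.25, and the extremes were *Tsc2* at -0.73 and *Eif4ebp1* at 0.19. No member passed an adjusted p of 0.05 in edgeR, where 0.0121% of all genes did, nor did any in limma voom (0.0121%) or any of the 25 that had an adjusted p in DESeq2 (2.34%). At an unadjusted p under 0.05, 9 members were called by edgeR, 9 by DESeq2 (10.4% of all genes) and 10 by limma voom (12.8%). The 9 in edgeR were all lower in miDrp1KO and made up 25.0% of the members, against 10.9% of all genes in either direction and 6.22% in the lower direction. In 10 members all miDrp1KO libraries were below all controls and in 0 all were above, which is 27.8% of the members, against 18.0% of all genes in either direction, 10.3% in the lower and 7.67% in the higher direction. Without control D the 9 members became 4 (5.36% of all genes), and with upper quartile normalization 5 (11.1%). Without miDrp1KO library A the 10 members became 22, where 37.7% of all genes did not overlap. The members were chosen with earlier results of these data known, so these counts describe the list and carry no test.

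**Figure D1:**
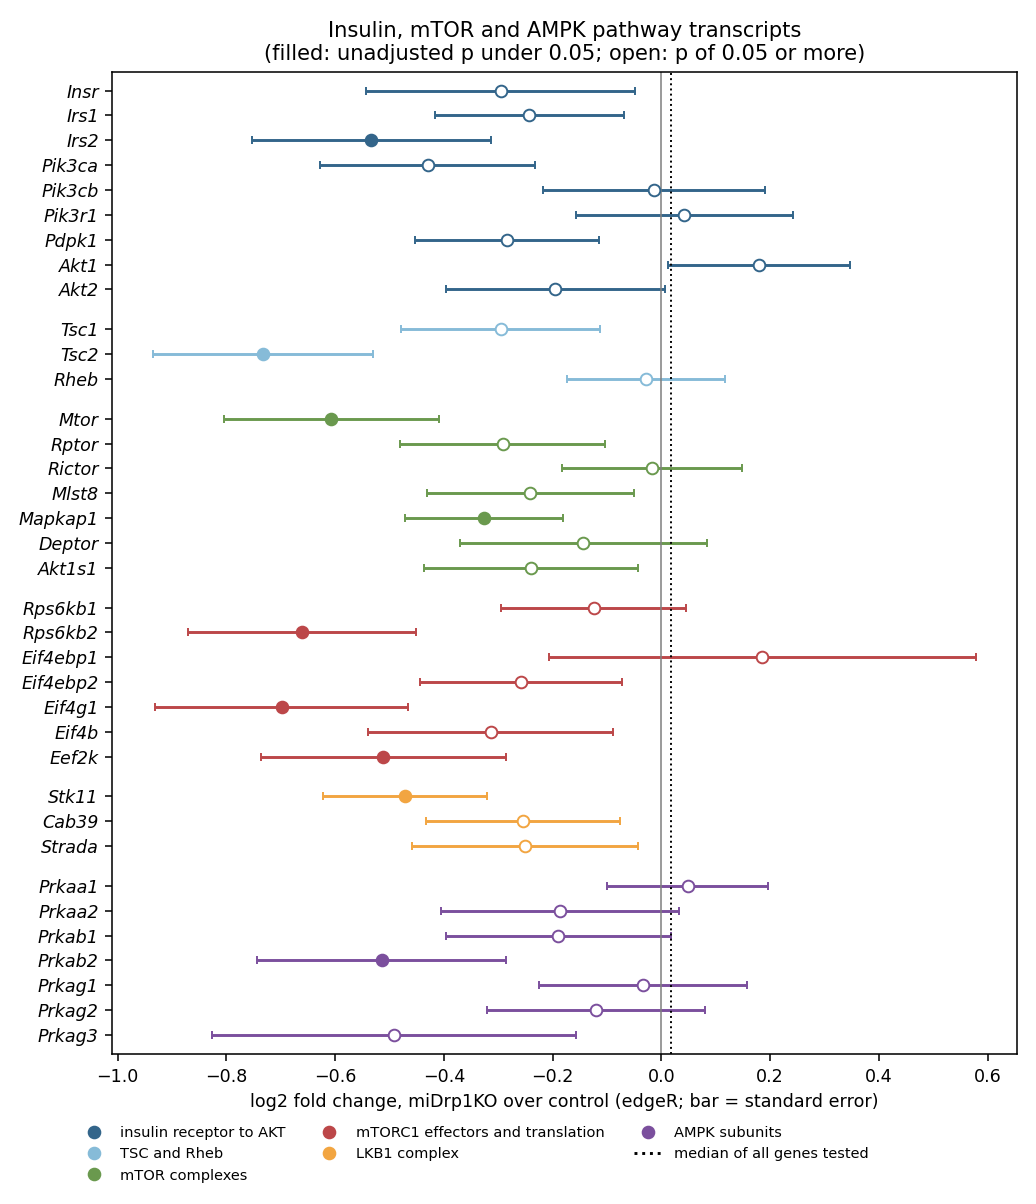
Log2 fold change of miDrp1KO over control for each of the 36 members by edgeR (x axis), grouped and colored by arm, with bars for the standard error (n = 3 per group) and filled points for an unadjusted p under 0.05. Of the members, 32 lie left of zero, and the 9 filled points, from *Tsc2* at -0.73 to *Mapkap1* at -0.33, are all on that side.

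The arms differed little in their medians. The median log2 fold change was -0.24 from insulin receptor to AKT, -0.30 for TSC and Rheb, -0.24 for the mTOR complexes, -0.31 for mTORC1 effectors and translation, -0.25 for the LKB1 complex and -0.19 for AMPK subunits. Without miDrp1KO library F the median was -0.14 over all members, -0.14 from insulin receptor to AKT, -0.11 for TSC and Rheb, -0.13 for the mTOR complexes and -0.050 for AMPK subunits. Without library A it was -0.48 for mTORC1 effectors and translation, -0.42 for the LKB1 complex and -0.32 for AMPK subunits, and without library E it was -0.20 for mTORC1 effectors and translation. The difference between arms was not tested.

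For the members that kept an unadjusted p under 0.05 in 5 or 6 of the 6 fits that left out 1 library and have a RefSeq window, the 250 bases ahead of the RefSeq transcription start (GRCm38.p6) are shown. These are *Tsc2*, *Mtor*, *Eif4g1* and *Stk11*, from 4 different arms, and in each the groups did not overlap. They are printed 5′ to 3′ on the strand of the gene. The *Tsc2* window is chr17:24632628-24632877 (minus strand), the *Mtor* window chr4:148448332-148448581 (plus strand), the *Eif4g1* window chr16:20672477-20672726 (plus strand) and the *Stk11* window chr10:80115545-80115794 (plus strand). Capitals mark the CCAAT box (CCAAT), the E-box (CACGTG) and the ETS site (CCGGAAG) on either strand. The *Eif4g1* window lies inside the gene as drawn in GENCODE M21, which starts it at position 20668313.
Tsc2: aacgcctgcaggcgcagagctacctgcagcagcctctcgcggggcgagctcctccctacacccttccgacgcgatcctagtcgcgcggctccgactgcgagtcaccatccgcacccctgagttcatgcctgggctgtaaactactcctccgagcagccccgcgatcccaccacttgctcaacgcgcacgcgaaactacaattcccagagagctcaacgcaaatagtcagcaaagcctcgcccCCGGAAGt
Mtor: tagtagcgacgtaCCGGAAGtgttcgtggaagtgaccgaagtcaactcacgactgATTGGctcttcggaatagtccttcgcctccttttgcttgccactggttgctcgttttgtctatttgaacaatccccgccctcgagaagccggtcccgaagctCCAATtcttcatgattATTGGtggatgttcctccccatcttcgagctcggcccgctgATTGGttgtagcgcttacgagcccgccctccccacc
Eif4g1: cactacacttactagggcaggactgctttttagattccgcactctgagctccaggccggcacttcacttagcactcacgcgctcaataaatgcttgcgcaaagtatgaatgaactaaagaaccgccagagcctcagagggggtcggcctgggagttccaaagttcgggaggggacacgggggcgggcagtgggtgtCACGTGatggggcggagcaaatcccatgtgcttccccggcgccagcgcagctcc
Stk11: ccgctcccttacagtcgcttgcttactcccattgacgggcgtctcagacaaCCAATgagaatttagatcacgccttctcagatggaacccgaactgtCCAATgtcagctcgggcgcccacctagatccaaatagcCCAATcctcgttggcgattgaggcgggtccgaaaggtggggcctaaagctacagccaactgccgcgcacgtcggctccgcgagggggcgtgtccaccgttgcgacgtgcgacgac

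None of the marked motifs was in all 4 windows. The *Mtor* window held 4 CCAAT boxes and 1 ETS site, the *Stk11* window 3 CCAAT boxes, the *Tsc2* window 1 ETS site that ends next to the start, and the *Eif4g1* window 1 E-box. A RefSeq window was matched for 32 of the 36 members and none for *Insr*, *Deptor*, *Rps6kb2* and *Eif4ebp1*. The ETS site was in a window of 8 of the 32 members (*Pik3ca*, *Tsc2*, *Mtor*, *Mapkap1*, *Akt1s1*, *Eif4ebp2*, *Prkab1* and *Prkag1*), against 7.83% of 27025 genes with a window. The E-box was in 5 (*Irs1*, *Irs2*, *Rheb*, *Eif4g1* and *Eef2k*), against 6.86%, the GC box GGGCGG in 24, against 35.4%, and the CCAAT box in 9, against 37.5%. The TATA box TATAAA was in 1 member (14.3% of genes), and the CRE TGACGTCA was in 0 (1.77% of genes). The 27025 genes were not limited to those that passed the filter on low counts, as all members did. The sets are therefore unlike, and the shares among genes that passed were not computed. Some genes have several windows, and a match is a description of letters and not of binding.

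From insulin receptor to AKT, 7 of 9 members had lower values (48.0% of all genes did) and 2 higher values. Of the 9, 1 was lower at an unadjusted p under 0.05. That is 11.1% of the arm, near the 10.9% of all genes. *Irs2*, an adaptor that links the receptor to PI3-kinase, was at 12.6, 19.0 and 17.1 CPM in control libraries B, C and D and at 11.9, 13.4 and 8.30 CPM in miDrp1KO libraries A, E and F. Library E was above control B, so the groups overlapped, and library F was lowest. Its log2 fold change was -0.53 ± 0.22 (edgeR unadjusted p = 0.0332, adjusted p = 0.422), or -0.34 without library F, and it kept an unadjusted p under 0.05 in 2 of the 6 fits that left out 1 library. *Pik3ca*, which encodes the catalytic p110 alpha subunit of PI3-kinase, was at 154, 123 and 134 CPM in controls and at 118, 110 and 78.0 CPM in miDrp1KO. The groups did not overlap, though control C and library A were close, and the log2 fold change was -0.43 ± 0.20 (edgeR unadjusted p = 0.0525, adjusted p = 0.463), or -0.25 without library F. *Pdpk1*, the gene of the kinase PDK1 that phosphorylates AKT, was at 79.5, 76.3 and 76.9 CPM in controls and at 68.8, 70.1 and 52.2 CPM in miDrp1KO. The controls were tightly grouped and all miDrp1KO libraries lay below them, at a log2 fold change of -0.28 ± 0.17 (edgeR unadjusted p = 0.121, adjusted p = 0.567) that was -0.14 without library F.

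The other 6 genes of this arm overlapped between the groups and had unadjusted p-values from edgeR of 0.190 or more. The receptor gene *Insr* had a log2 fold change of -0.30 ± 0.25, with library F at 63.0 CPM against 102 to 146 CPM in controls, and its value was -0.047 without that library and -0.093 without control B. The major adaptor *Irs1* was at 96.5 to 127 CPM in controls and 84.3 to 99.2 CPM in miDrp1KO (-0.24 ± 0.17, or -0.11 without control D), and 30.9% of its exon length is shared with *Gm9747* on the opposite strand. The regulatory subunit *Pik3r1* had a log2 fold change of 0.04 ± 0.20, its highest level in library A at 136 CPM, and a lower value in miDrp1KO (-0.16) without that library. *Pik3cb*, the p110 beta subunit, was at -0.01 ± 0.20. Of the AKT kinases, *Akt1* had a log2 fold change of 0.18 ± 0.17 (0.059 without library F). *Akt2*, the form tied to glucose uptake in muscle, was at -0.19 ± 0.20 (-0.036 without library E and -0.33 when adjusted for the ribosomal RNA share). Of the pair, *Akt2* made up 68.2 ± 1.75% (SD) of their summed CPM per kb of exon in controls and 62.2 ± 5.27% in miDrp1KO (two-sided exact permutation test, p = 0.2).

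Among the 3 genes of TSC and Rheb, *Tsc2* had the lowest log2 fold change. Tuberin, its product, is the GTPase-activating part of the complex that inactivates Rheb. It was at 51.5, 35.4 and 35.6 CPM in control libraries B, C and D and at 27.6, 26.6 and 19.4 CPM in miDrp1KO libraries A, E and F. The groups did not overlap, with control B well above the other controls and library F lowest. The log2 fold change was -0.73 ± 0.20, with an unadjusted p of 0.00386 and an adjusted p of 0.362 by edgeR, and the adjusted p was 0.0700 in DESeq2 and ran up to 0.877 over the alternatives. *Tsc2* was below an unadjusted p of 0.05 in all 6 fits that left out 1 library, and 7.2% of its exon length is shared with *Pkd1* on the opposite strand. *Tsc1*, whose product hamartin stabilizes tuberin, was at 53.4, 56.8 and 52.0 CPM in controls and at 51.9, 46.8 and 33.4 CPM in miDrp1KO. Library A was just below control D, so the groups did not overlap but nearly met, at a log2 fold change of -0.30 ± 0.18 (edgeR unadjusted p = 0.135, adjusted p = 0.577) that was -0.11 without library F. *Rheb*, the activator of mTORC1, was at 45.0 to 46.8 CPM in controls and 42.1 to 47.0 CPM in miDrp1KO, a log2 fold change of -0.03 ± 0.15.

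All 7 genes of the mTOR complexes had a negative log2 fold change (48.0% of all genes did), and 2 were lower at an unadjusted p under 0.05 (28.6%, against 6.22% of all genes). *Mtor*, the kinase of both complexes, was at 52.6, 42.9 and 48.0 CPM in controls and at 38.0, 33.3 and 22.9 CPM in miDrp1KO. All miDrp1KO libraries were below all controls, with library F lowest, and the log2 fold change was -0.61 ± 0.20 (edgeR unadjusted p = 0.0104, adjusted p = 0.382), and the unadjusted p stayed under 0.05 in all 6 fits that left out 1 library. *Mapkap1*, which encodes the mTORC2 subunit SIN1, was at 46.1, 42.6 and 43.2 CPM in controls and at 36.2, 32.9 and 36.1 CPM in miDrp1KO. The libraries within each group were close to each other and the groups were apart, for a log2 fold change of -0.33 ± 0.14 (edgeR unadjusted p = 0.0450, adjusted p = 0.449), but only 1 of the 6 fits without 1 library kept an unadjusted p under 0.05.

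The remaining mTOR complex genes overlapped between the groups. *Rptor*, the scaffold of mTORC1, had a log2 fold change of -0.29 ± 0.19 (-0.13 without library F and -0.15 without control B), and *Rictor*, the scaffold of mTORC2, of -0.02 ± 0.17. *Mlst8*, the subunit common to both complexes, was at -0.24 ± 0.19 (-0.11 without library F), and 22.5% of its exon length is shared with *Bricd5* on the opposite strand. *Akt1s1*, the gene of the mTORC1 inhibitor PRAS40, was at -0.24 ± 0.20, or -0.070 without library E and -0.39 when adjusted for the ribosomal RNA share. The inhibitor gene *Deptor* spread widely in miDrp1KO, at 35.0, 24.0 and 18.1 CPM against 25.0 to 32.3 CPM in controls, and its log2 fold change of -0.14 ± 0.23 was 0.07 without library F.

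Among mTORC1 effectors and translation genes, 6 of 7 had lower values (48.0% of all genes did). Of the 7, 3 were lower at an unadjusted p under 0.05 (42.9%, against 6.22% of all genes). *Eif4g1*, the scaffold that joins the cap-binding protein to the ribosome, was at 569, 497 and 569 CPM in controls and at 431, 330 and 247 CPM in miDrp1KO. The lowest control was above the highest miDrp1KO library, with a log2 fold change of -0.70 ± 0.23 (edgeR unadjusted p = 0.0119, adjusted p = 0.382). The unadjusted p was under 0.05 in all 6 fits without 1 library, and the adjusted p in DESeq2 was 0.0710, the lowest of the alternatives, which ran to 0.877. *Rps6kb2*, the gene of S6 kinase 2, was at 12.9, 11.3 and 13.1 CPM in controls and at 9.53, 5.79 and 8.45 CPM in miDrp1KO. Again every miDrp1KO library was below every control, here with library E lowest. The log2 fold change was -0.66 ± 0.21 (edgeR unadjusted p = 0.00895, adjusted p = 0.381) and its unadjusted p stayed under 0.05 in all 6 fits without 1 library. Its exons overlap *Ptprcap* on the opposite strand over 23.7% of their length, and the strand setting of the counting is not given in the sources used here, so reads of *Ptprcap* could be included.

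*Eef2k*, which encodes the kinase that inhibits elongation factor 2 and is itself held back by S6 kinase, was at 64.4, 71.2 and 73.1 CPM in controls and at 68.7, 37.7 and 40.2 CPM in miDrp1KO. Library A lay within the controls while E and F were far below them, and the log2 fold change was -0.51 ± 0.23 (edgeR unadjusted p = 0.0441, adjusted p = 0.446), with an unadjusted p under 0.05 in 1 of the 6 fits without 1 library, and -0.81 without library A. The other members of the arm overlapped between the groups. *Rps6kb1*, the gene of S6 kinase 1, had a log2 fold change of -0.12 ± 0.17, *Eif4ebp2* of -0.26 ± 0.19 and *Eif4b*, a helicase cofactor, of -0.31 ± 0.22. Without library F, *Rps6kb1* was at -0.049 and *Eif4ebp2* at -0.13, and without library E *Eif4b* was at -0.17. The most negative values over the alternatives were -0.20 for *Rps6kb1*, -0.42 for *Eif4ebp2* and -0.48 for *Eif4b*. *Eif4ebp1*, whose product 4E-BP1 blocks cap-dependent translation, had the widest error of the members at 0.19 ± 0.39. It ran from 17.8 to 38.3 CPM in controls and from 17.9 to 43.2 CPM in miDrp1KO, and its log2 fold change was -0.24 when the fit adjusted for the ribosomal RNA share.

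**Figure D2:**
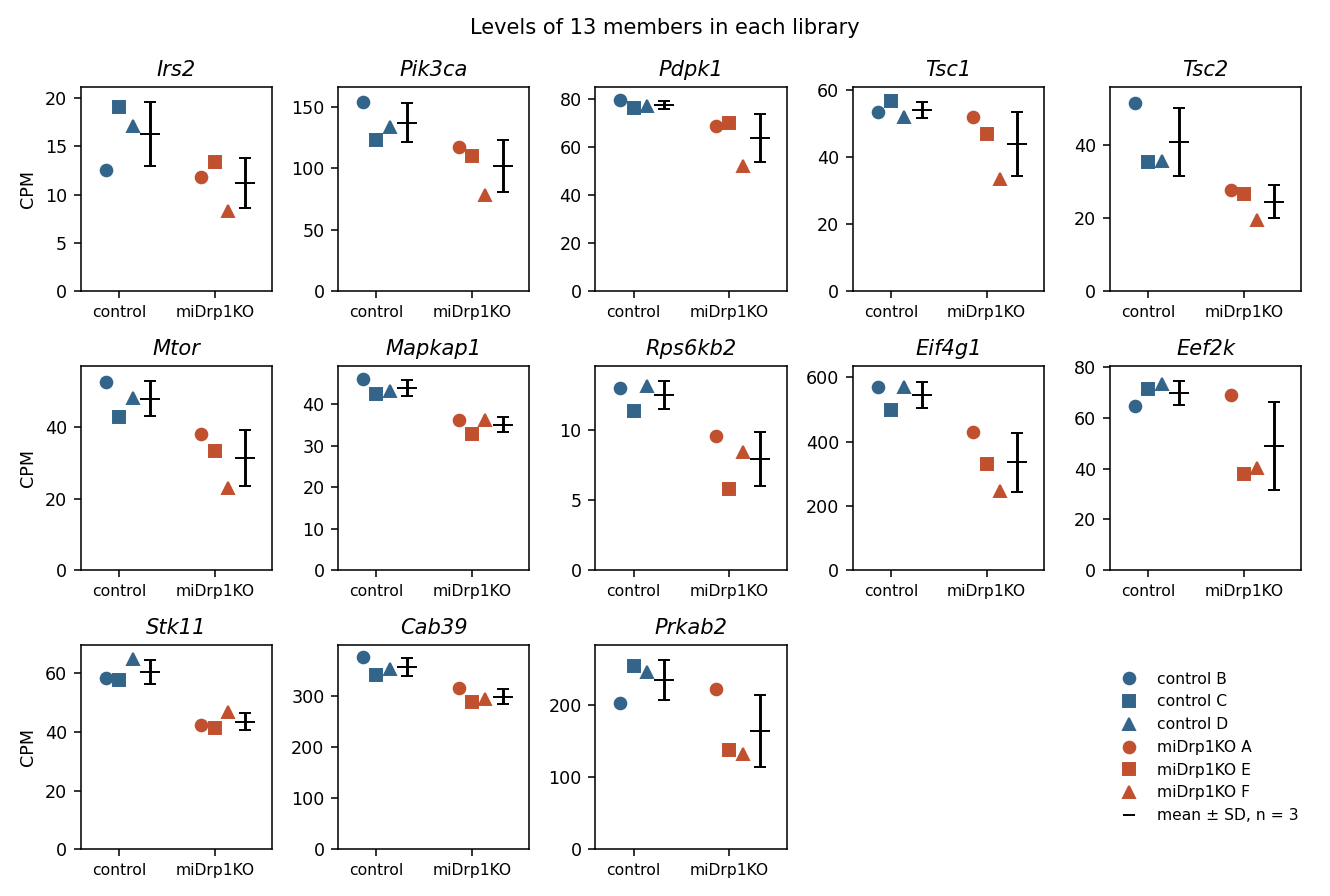
CPM in each library (y axes start at 0) for the 13 members with an unadjusted p under 0.05 or no overlap between the groups, with control libraries in blue, miDrp1KO libraries in red and black bars for mean ± SD (n = 3). In 10 panels all red points lie below all blue points, while in *Irs2*, *Eef2k* and *Prkab2* 1 or more red points reach the controls.

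All 3 genes of the LKB1 complex, which activates AMPK, had lower values (48.0% of all genes did). Of these, 1 was lower at an unadjusted p under 0.05 (33.3%, against 6.22% of all genes). *Stk11*, the gene of the kinase LKB1, was at 58.1, 57.6 and 64.7 CPM in controls and at 42.1, 41.4 and 46.6 CPM in miDrp1KO. This was among the cleanest separations in the list, with all 3 miDrp1KO libraries at a like level. The log2 fold change was -0.47 ± 0.15 (edgeR unadjusted p = 0.00956, adjusted p = 0.382), under 0.05 unadjusted in 5 of the 6 fits without 1 library, and 5.07% of its exon length is shared with *Cbarp* on the opposite strand. *Cab39*, which encodes the scaffold MO25 alpha, was at 375, 341 and 353 CPM in controls and at 315, 288 and 293 CPM in miDrp1KO. The groups did not overlap, and the log2 fold change was -0.25 ± 0.18 (edgeR unadjusted p = 0.182, adjusted p = 0.627). *Strada*, the pseudokinase partner of LKB1, overlapped between the groups at 10.1 to 10.7 CPM in controls and 6.5 to 10.9 CPM in miDrp1KO. Its log2 fold change was -0.25 ± 0.21, or -0.071 without library E and -0.44 when adjusted for the ribosomal RNA share.

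AMPK is a heterotrimer of a catalytic alpha, a scaffolding beta and a nucleotide-binding gamma subunit, each with several genes. In 0 of the 7 genes did the groups separate (18.0% of all genes), and 1 was at an unadjusted p under 0.05 (14.3%, near the 10.9% of all genes). *Prkab2*, the beta 2 subunit, was at 203, 254 and 246 CPM in controls and at 222, 138 and 133 CPM in miDrp1KO. Library A lay within the controls and E and F below them, the same pattern as in *Eef2k*. The log2 fold change was -0.51 ± 0.23 (edgeR unadjusted p = 0.0463, adjusted p = 0.451), under 0.05 unadjusted in 2 of the 6 fits without 1 library. *Prkag3*, the gamma 3 subunit found mainly in fast glycolytic fibers, varied as much among controls as between genotypes, at 67.1, 155 and 125 CPM in controls and 93.8, 54.4 and 99.0 CPM in miDrp1KO. Its lowest libraries were control B and miDrp1KO E, both of which were high in slow fiber markers, while library F, also high in them, was not low (log2 fold change -0.49 ± 0.33, or -0.25 without control C, -0.26 without library E and -0.75 without control B). The catalytic genes *Prkaa2* (-0.19 ± 0.22) and *Prkaa1* (0.05 ± 0.15), and *Prkab1* (-0.19 ± 0.21), *Prkag1* (-0.03 ± 0.19) and *Prkag2* (-0.12 ± 0.20), had edgeR unadjusted p-values of 0.379 or more. Without library F, *Prkaa2* was at -0.012, *Prkab1* at -0.024 and *Prkag2* at -0.050. At the other end of the alternatives, *Prkaa2* was at -0.35, *Prkab1* at -0.32 and *Prkag2* at -0.22. Of the exon length of *Prkag1*, 43.7% is shared with the antisense gene B130046B21Rik, and of that of *Prkag2*, 12.3% with Prkag2os2 and 2.19% with Prkag2os1.

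Levels of different genes were compared per kb of exon length in GENCODE M21, as CPM per kb. The annotation on which the authors counted may hold other exons, so levels between genes and the subunit shares depend on these lengths. The highest members in controls were *Eif4g1* at 74.7 ± 5.72 (SD, n = 3), *Eif4b* at 70.8 ± 12.5 and *Prkaa2* at 58.7 ± 3.11 CPM per kb, and the lowest were *Rptor* at 1.64 ± 0.230 and *Pik3cb* at 1.0 ± 0.197 CPM per kb. *Eif4g1* and *Eif4b* did not differ beyond their spread. In every AMPK family 1 gene held most of the transcript. *Prkaa2* made up 91.6 ± 0.736% of the alpha, *Prkab2* 94.6 ± 0.222% of the beta and *Prkag3* 80.0 ± 8.61% of the gamma level in controls. In miDrp1KO these shares were 89.9 ± 2.18, 93.2 ± 0.991 and 75.7 ± 7.02%. The beta shares did not overlap between the groups (exact permutation p = 0.1, two-sided, which is the floor for 3 against 3), while the alpha (p = 0.3) and gamma shares (p = 0.5, same exact test) overlapped.

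**Figure D3:**
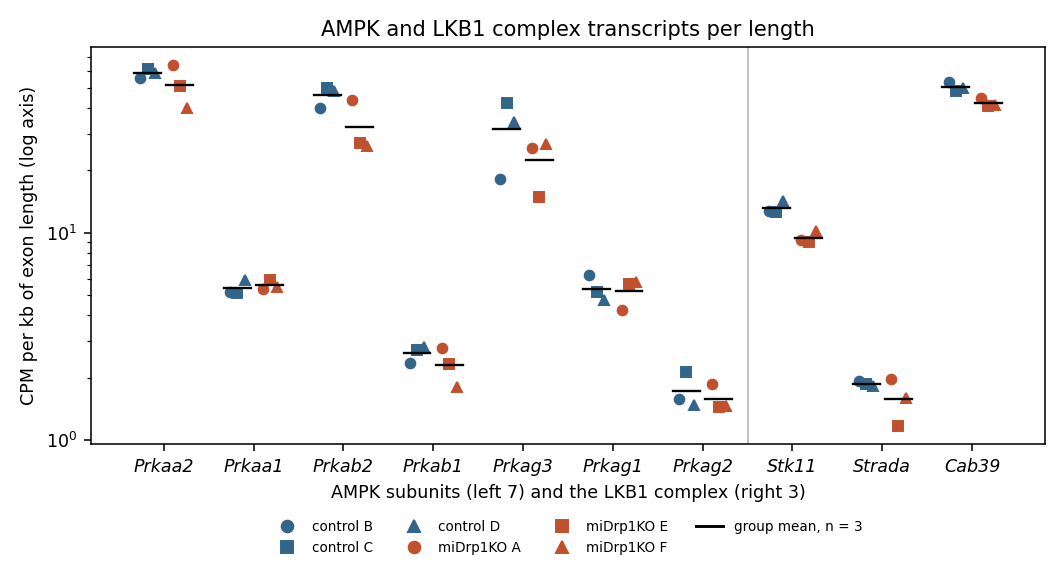
CPM per kb of exon length (log axis) of the 7 AMPK subunit genes and the 3 LKB1 complex genes in each library, with control libraries in blue, miDrp1KO libraries in red and black lines for group means (n = 3). *Prkaa2*, *Prkab2* and *Prkag3* stand above the other genes of their subunit in both genotypes, and *Stk11* and *Cab39* are the genes whose groups do not overlap.

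The ratio of 2 members within a library does not depend on how libraries are scaled, and 13 pairs were compared. In 4 pairs the groups did not overlap, each at a two-sided exact permutation p of 0.1 and a Benjamini-Hochberg value of 0.325 over the pairs, so none can pass the threshold in this design. The log2 ratio *Rps6kb1*/*Rps6kb2* was 3.37 ± 0.20 (SD) in controls and 3.92 ± 0.31 in miDrp1KO. *Pik3r1*/*Pik3ca*, a regulatory over a catalytic subunit, was -0.41 ± 0.24 in controls and 0.05 ± 0.19 in miDrp1KO. *Tsc1*/*Tsc2* was 0.43 ± 0.33 in controls and 0.83 ± 0.07 in miDrp1KO, and control C at 0.68 came close to the lowest miDrp1KO library at 0.78. Control B at 0.05 lay well below controls C and D (0.68 and 0.55) and lowered the control mean of this ratio. *Prkab2*/*Prkab1* was 4.86 ± 0.06 in controls and 4.52 ± 0.22 in miDrp1KO. The first 3 ratios were higher and the last was lower in miDrp1KO, while the other 9 pairs overlapped, among them *Akt2*/*Akt1* at 1.90 ± 0.12 and 1.52 ± 0.32.

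**Figure D4:**
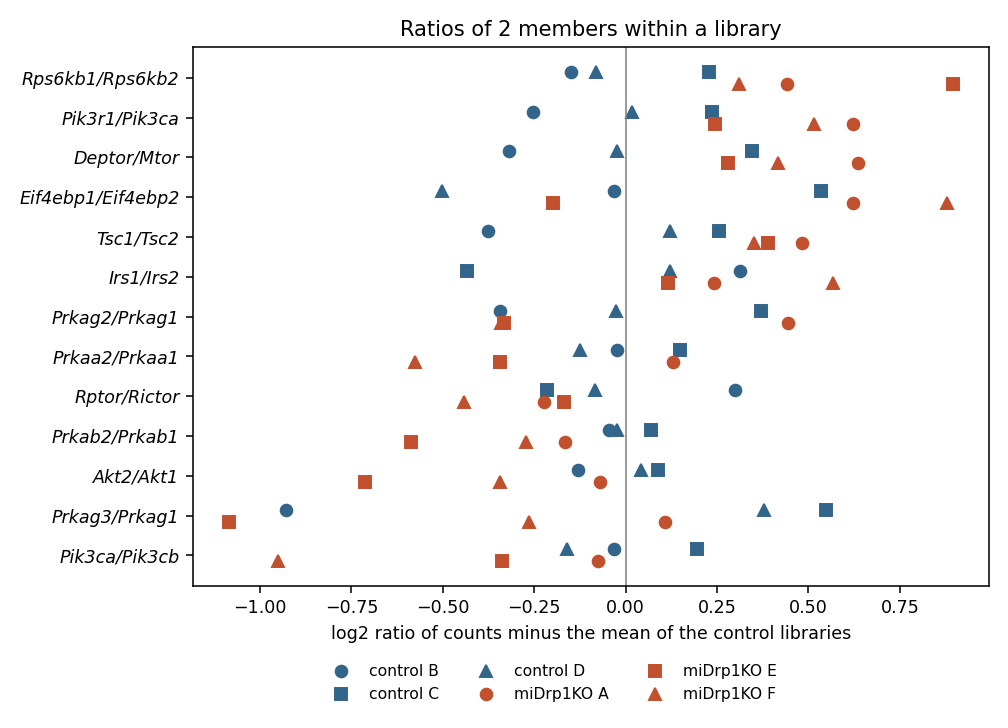
Log2 ratio of the counts of 2 members within each library, as the difference from the mean of the control libraries (x axis), for 13 pairs, with control libraries in blue and miDrp1KO libraries in red. The groups separate in 4 pairs, with *Rps6kb1*/*Rps6kb2*, *Pik3r1*/*Pik3ca* and *Tsc1*/*Tsc2* to the right and *Prkab2*/*Prkab1* to the left in miDrp1KO.

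Among the 36 members, the 3 miDrp1KO libraries did not carry the lower values equally. How often each library was lowest or below all controls was not counted over all genes, so these counts describe the members only. Library A was below all 3 controls in 15 of the 36 members, library E in 27 and library F in 27. Library F was the lowest of the 6 libraries in 19 members and library E in 12, against 2 members for library A. The median member lay -0.07, -0.28 and -0.38 on the log2 scale from the control mean in libraries A, E and F. Library A also had the highest sum of skeletal muscle markers of the miDrp1KO libraries and few slow fiber transcripts, and the part of these in the differences between libraries was not tested. *Tsc2*, *Mtor*, *Stk11*, *Rps6kb2*, *Eif4g1* and *Mapkap1* were below all controls in library A as well.

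**Figure D5:**
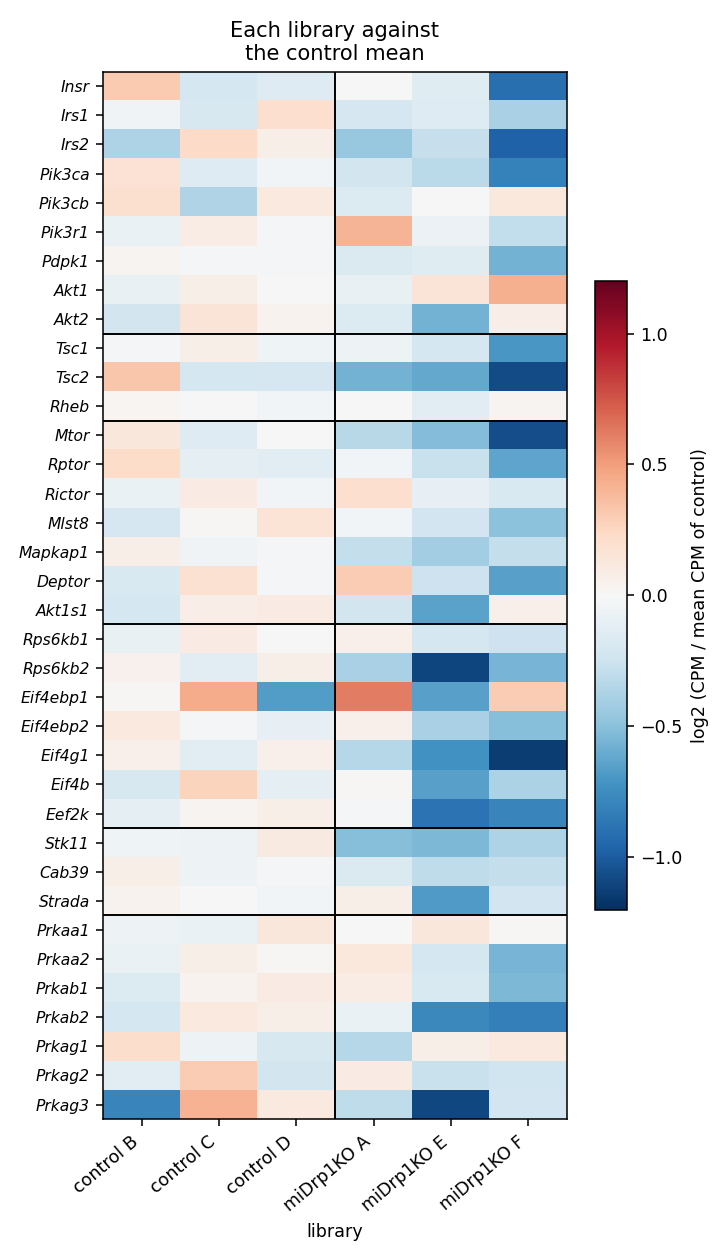
Log2 ratio of each library's CPM to the control mean (color) for the 36 members in rows, with black lines between the arms and between control libraries (left 3 columns) and miDrp1KO libraries (right 3 columns). Blue, for lower values, fills more of the columns of libraries E and F than of library A, and *Tsc2*, *Mtor*, *Eif4g1* and *Stk11* are blue in all 3.

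Of 78 further pathway genes that were listed beside the members, 76 were in the files and 75 were tested. In these, 52 had lower values (48.0% of all genes did) and 23 higher values, and the median log2 fold change was -0.11. Of the 75, 0 passed an adjusted p of 0.05 in edgeR or limma voom, nor did any of the 29 that had an adjusted p in DESeq2. At an unadjusted p under 0.05 there were 10 lower and 3 higher genes by edgeR (17.3%, against 10.9% of all genes). DESeq2 called 11 of them (10.4% of all genes) and limma voom 14 (12.8% of all genes). *Tbc1d7*, the third subunit of the TSC complex, was at 10.2, 9.77 and 10.9 CPM in controls and at 6.46, 6.37 and 6.43 CPM in miDrp1KO. The groups were well apart, and the log2 fold change was -0.68 ± 0.17 (edgeR unadjusted p = 0.00200, adjusted p = 0.362). *Tti1*, a subunit of the TTT chaperone complex needed to assemble mTOR, was at 35.7, 33.7 and 36.6 CPM in controls and at 27.6, 19.0 and 15.2 CPM in miDrp1KO. It did not overlap either, at a log2 fold change of -0.78 ± 0.21 (edgeR unadjusted p = 0.00308, adjusted p = 0.362). *Acacb*, the mitochondrial acetyl-CoA carboxylase that AMPK phosphorylates, was at 219, 153 and 177 CPM in controls and at 138, 109 and 64.1 CPM in miDrp1KO (-0.82 ± 0.27, edgeR unadjusted p = 0.0115, adjusted p = 0.382). Its highest miDrp1KO library was below its lowest control. Without control D the 13 genes at an unadjusted p under 0.05 became 6 (5.36% of all genes), and without control B they became 8 (8.8% of all genes).

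*Larp1*, a regulator of ribosomal protein mRNAs downstream of mTORC1, had a log2 fold change of -0.68 ± 0.23 with no overlap between the groups (edgeR unadjusted p = 0.0128, adjusted p = 0.387), or -0.44 without miDrp1KO library F. *Sh2b1*, an adaptor of the insulin receptor, was at -0.46 ± 0.15 and *Gsk3a*, a kinase inhibited by AKT, at -0.50 ± 0.19, also without overlap. *Ptprf*, a receptor phosphatase that acts on the insulin receptor, was higher, at 2.23, 1.97 and 2.35 CPM in controls and 2.97, 4.68 and 4.46 CPM in miDrp1KO (0.88 ± 0.26, edgeR unadjusted p = 0.00641, adjusted p = 0.379). The receptor-like *Insrr* was at 0.364 to 0.474 CPM in controls and 0.486 to 1.25 CPM in miDrp1KO (1.23 ± 0.50, edgeR unadjusted p = 0.0327, adjusted p = 0.422). Its counts ran only from 5 to 51 per library, and library A nearly met control B. Of the 6 fits without 1 library, 2 kept it at an unadjusted p under 0.05. By list, 2 lower and 2 higher genes were at an unadjusted p under 0.05 among 11 receptor and adaptor genes (36.4%), 2 lower among 22 genes of amino acid and stress input to mTORC1 (9.09%), 1 lower among 5 further mTOR complex genes (20.0%), 2 lower among 10 translation effectors (20.0%) and 1 lower among 8 genes upstream of AMPK or among its substrates (12.5%), against 10.9% of all genes.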

How the data were processed

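The authors deposited raw counts of reads per gene, 1 file per library, from ribosomal RNA-depleted stranded libraries of quadriceps RNA. Their methods name FastQC for read quality and Rsubread for alignment (GRCm38) and counting, and the submitters' processing notes name DESeq2 1.30.0. The strand setting and the handling of reads on overlapping genes are not given in the sources used here. There are 27179 genes, 874 of them without a symbol, and totals of 13989588 to 62042255 counts per library.

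The main test was the quasi-likelihood test of edgeR 4.0.16 in R 4.3.3 (TMM, filterByExpr by genotype, robust fit, Benjamini-Hochberg over 16483 genes, threshold 0.05). CPM used TMM library sizes. SE is the log2 fold change divided by the square root of F. The biological coefficient of variation was 0.252, and Spearman correlations between libraries ran from 0.96 to 0.985, with no duplicates. Single levels, shares and ratios (0.5 added to each count) were compared by two-sided exact permutation tests (smallest p 0.1), with scipy 1.17.1. P-values compare these 3 control with these 3 miDrp1KO mice. Those of edgeR set the difference against a spread between mice that was moderated over all genes tested.

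The members and all gene lists were chosen with earlier results of these data known. All members are named, with the value in every library for those with an unadjusted p under 0.05 or no overlap, and of the other pathway genes the 8 with the lowest p are named. The counts of 1 list of other pathway genes are not reported here. Exon lengths, overlaps and coordinates came from GENCODE M21 (GRCm38) and promoter windows from RefSeq (GRCm38.p6). Motifs were searched on both strands of the 250 bases ahead of each start, where all windows of this length gave the shares of genes. Alternatives were DESeq2 1.42.0, limma voom (limma 3.58.1), RLE and upper quartile normalization, no filter, at least 10 counts in every library, adjustment for the ribosomal RNA share, and 6 fits that each left out 1 library.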

Additional observations from a re-analysis of the deposited data

How the results depend on the processing

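Over the 13 alternatives, 27 of the 36 members kept their direction and 9 reversed in at least 1, none of these at a value past the adjusted threshold. No member passed the adjusted threshold under any alternative, with DESeq2 giving an adjusted p to 25 of them, and the lowest adjusted p was 0.0673. *Dnm1l* was called with DESeq2 (-0.90, adjusted p = 0.00382, range over alternatives 0.00382 to 0.877). Members at an unadjusted p under 0.05 numbered 5 with upper quartile normalization, where 11.1% of all genes were. Under it *Pik3cb* (0.076), *Rheb* (0.061), *Rictor* (0.069) and *Prkag1* (0.059) reversed, and with at least 10 counts in every library the same genes did so at 0.028, 0.014, 0.024 and 0.012. Adjusted for the ribosomal RNA share, the LKB1 complex median was -0.44 and *Eif4ebp1* -0.24. The cause of these shifts was not tested.

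Leaving out 1 library gave 4 (without control D) to 11 members at an unadjusted p under 0.05, 9 to 22 (without miDrp1KO A) without overlap, where fewer libraries make separation easier, and 6 (without control D) to 14 other pathway genes at an unadjusted p under 0.05, with 8 without control B. Of all genes, 5.36% (without control D) to 17.5% (without miDrp1KO A) were at an unadjusted p under 0.05, with 8.8% without control B, and 23.1% (without control D) to 37.7% (without miDrp1KO A) did not overlap. Medians ran from -0.34 to -0.14 over all members (-0.14 without miDrp1KO F), -0.31 to -0.14 from insulin receptor to AKT (-0.14 without miDrp1KO F), -0.41 (without miDrp1KO A) to -0.11 (without miDrp1KO F) for TSC and Rheb, -0.33 (without miDrp1KO A) to -0.13 (without miDrp1KO F) for the mTOR complexes, -0.48 (without miDrp1KO A) to -0.20 (without miDrp1KO E) for mTORC1 effectors and translation, -0.42 (without miDrp1KO A) to -0.21 for the LKB1 complex, and -0.32 (without miDrp1KO A) to -0.050 (without miDrp1KO F) for AMPK subunits. Log2 fold changes ran from -0.18 to 0.10 for *Pik3cb*, -0.16 to 0.20 for *Pik3r1*, -0.047 to 0.018 for *Rheb*, -0.12 to 0.078 for *Rictor*, -0.41 to 0.072 for *Deptor*, -0.067 to 0.48 for *Eif4ebp1*, -0.012 to 0.14 for *Prkaa1*, -0.10 to 0.12 for *Prkag1*, -0.22 to 0.034 for *Prkag2* and -0.34 to 0.11 for *Prkag2*/*Prkag1*. No paired analysis was possible because control and miDrp1KO libraries have no replicate letter in common. Counts of a member in a library ran from 77 (*Pik3cb*) to 34179 (*Eif4g1*), so counting error weighs most on the low members.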

Other observations

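Of the other pathway genes at an unadjusted p under 0.05, *Trib3*, a stress-induced pseudokinase that binds AKT, is named here after its values were seen. It was at 0.663, 1.09 and 0.367 CPM in control libraries B, C and D and at 1.46, 1.28 and 7.97 CPM in miDrp1KO libraries A, E and F. Every miDrp1KO library was above every control, and library F stood far above the rest (log2 fold change 2.45 ± 0.91, edgeR unadjusted p = 0.0346, adjusted p = 0.426). Over the alternatives its log2 fold change ran from 1.06 to 2.89 and its adjusted p from 0.196 to 0.877.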
